A study of Mus musculus with 14 samples.

Results

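Mouse embryonic stem cells grown in serum with leukemia inhibitory factor (FBS/LIF) were compared with the same cells given vitamin C on top (VitC/LIF). The comparison takes the samples whose titles name these media, 2 libraries per medium, or 4 of the 14 libraries in the series. The cells were a C57BL/6 dual reporter line carrying an mCherry reporter of mir-290 and an eGFP reporter of mir-302, 2 microRNA clusters of pluripotent cells. They were seeded sparsely and kept for 5 days, with vitamin C at 500 µM in VitC/LIF and none added in FBS/LIF, and total RNA was extracted with an RNeasy kit. All 4 libraries therefore share the reporters, serum and LIF, and the line stands for 1 genetic background. The labels leave unsaid whether replicates were grown as separate cultures, so p-values measure only the spread between libraries of a medium, which may be technical. That spread was estimated over 10 libraries, these 4 and the 6 described next. Another 6 libraries, 2 each from 2i/LIF (LIF with blockers of the kinases MEK and GSK3), from L-proline in FBS/LIF (L-Pro/LIF) and from activin A at 20 ng/ml with bFGF at 12 ng/ml in the serum-free medium N2B27 (F/A), entered the statistical fit and are used as reference levels.

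Vitamin C (ascorbate) keeps iron in its reduced form and is a cofactor of the 2-oxoglutarate-dependent dioxygenases. This enzyme family holds the prolyl hydroxylases that mark hypoxia-inducible factor (HIF) for destruction, the collagen hydroxylases, the TET enzymes that oxidize 5-methylcytosine and the JmjC histone demethylases. Mice make their own vitamin C in the liver, whereas cultured stem cells depend on uptake from the medium. The comparison asks which transcripts change when it is supplied to stem cells in serum and LIF.

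Sequencing depth was 22750698 and 21895681 mapped fragments in FBS/LIF replicates 1 and 2, and 19010225 and 17778399 in VitC/LIF replicates 1 and 2. Levels are given as CPM, the usual count unit scaled to library depth and here also to library composition, and a log2 fold change is VitC/LIF over FBS/LIF. The summed level of 7 pluripotent stem cell markers was 2965 to 3016 CPM in FBS/LIF and 2950 to 2979 CPM in VitC/LIF. Members of this sum went both ways: Nanog and Sox2 were higher and Pou5f1 lower in both VitC/LIF libraries. Short panels of markers of 5 other cell types summed to at most 14.2 CPM in any of the 4 libraries. The highest of these sums belonged to primitive endoderm, with 5.73 to 14.2 CPM in FBS/LIF and 2.82 to 8.50 CPM in VitC/LIF. The longer lineage lists used below summed higher. Primitive endoderm genes there reached 898.5 to 1020 CPM in FBS/LIF and 1010 to 1055 CPM in VitC/LIF, and mesendoderm genes 11.65 to 11.81 and 8.83 to 9.37 CPM. The primitive endoderm sum included Apoe, at 441.5 and 392.2 CPM in FBS/LIF and 622.8 and 597.6 CPM in VitC/LIF. Of its 20 tested genes 8 were lower in both VitC/LIF libraries than in both FBS/LIF libraries, and 3 were higher. The low sums therefore hold for the short panels only. In bulk RNA, fewer cells of a type and less RNA per cell cannot be told apart.

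Few transcripts passed the test, and most of these differed by a few fold. Of the 16033 genes tested, 58 rose (0.362%) and 50 fell (0.312%) in VitC/LIF at an adjusted p under 0.05 in edgeR's quasi-likelihood test, which is 0.674% in either direction. At least a 2-fold change was seen in 40 of the genes that rose and 26 of those that fell. The median log2 fold change of all tested genes was -0.01. At an unadjusted p under 0.05, 901 genes were higher (5.62%) and 899 lower (5.61%), and DESeq2 called 245 higher (1.66%) and 185 lower (1.25%). In all 108 called genes the 2 VitC/LIF libraries lay on 1 side of both FBS/LIF libraries. Over all tested genes both VitC/LIF libraries were above both FBS/LIF libraries in 20.8% and below them in 22.1%. The shares in this paragraph are the background for the counts of list members given below.

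The calls rested on all 4 libraries. Left out 1 at a time, FBS/LIF replicate 1 left 9 calls, FBS/LIF replicate 2 left 12, VitC/LIF replicate 1 left 10 and VitC/LIF replicate 2 left 6, with the lone library assumed to vary like the other media. Every one of the 108 genes kept its sign in these 4 fits, which follows from groups that do not overlap and is no further evidence. A call in all 4 of them was made for 5 genes, among them Enpp2, Epha4, Gstp2 and AI662270, and 98 genes had none. Without F/A replicate 1, the shallowest library of the fit with 6937945 mapped fragments, 250 genes were called, and the 108 were all among them.

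**Figure D1:**
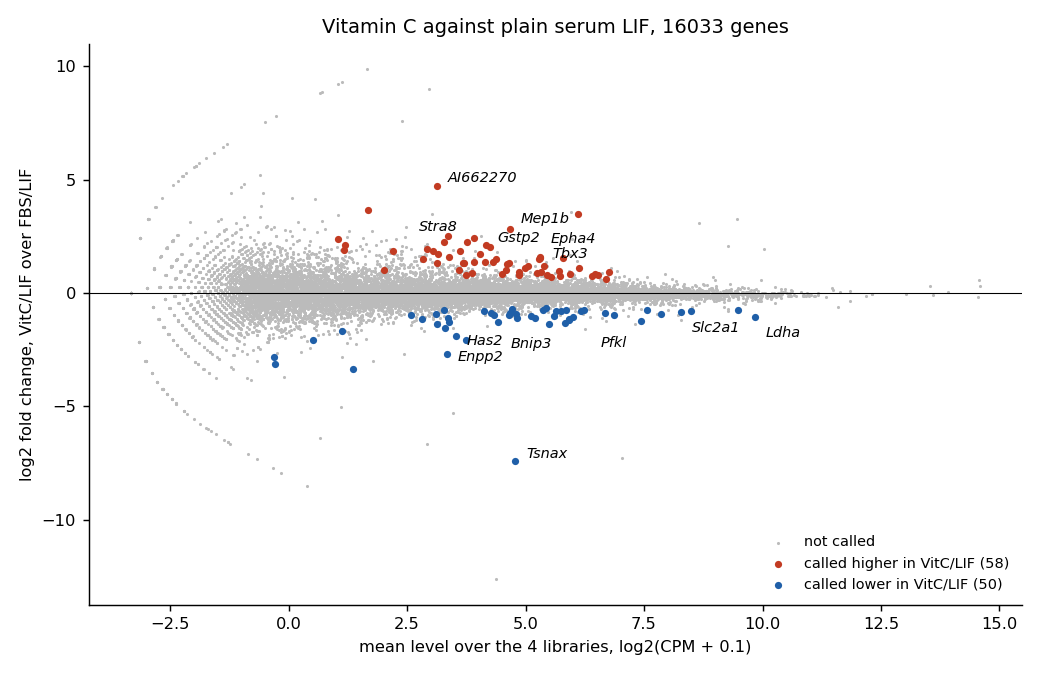
Each point is 1 of 16033 genes, with its mean level over the 4 libraries as log2(CPM + 0.1) on the x axis and its log2 fold change, VitC/LIF over FBS/LIF, on the y axis. Red points are the 58 genes called higher and blue points the 50 called lower. Of the called genes 40 higher and 26 lower ones lie at least 2-fold from no change, and Tsnax, the lowest called point, has no uniquely mapped fragments.

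The genes that fell most included a set of secreted and surface proteins. Enpp2 (ENSMUSG00000022425) encodes autotaxin, the secreted enzyme that makes lysophosphatidic acid. It stood at 16.6 and 18.0 CPM in FBS/LIF and at 2.87 and 2.49 CPM in VitC/LIF, a log2 fold change of -2.69 (SE 0.20, adjusted p = 0.00222). The 2 VitC/LIF libraries were alike and far below both FBS/LIF libraries. Lpar4, a receptor for lysophosphatidic acid, fell from 30.0 and 30.8 to 12.1 and 12.8 CPM (log2 fold change -1.29, SE 0.11, adjusted p = 0.00266). Has2 (ENSMUSG00000022367), which makes the matrix polysaccharide hyaluronan, was at 18.1 and 18.2 CPM in FBS/LIF and 4.42 and 5.21 CPM in VitC/LIF, a log2 fold change of -1.91 (SE 0.16, adjusted p = 0.0031). Spink1, a secreted inhibitor of trypsin-like proteases, was the least even of them. It measured 26.4 and 16.9 CPM in FBS/LIF against 6.29 and 3.99 CPM in VitC/LIF (log2 fold change -2.07, SE 0.34, adjusted p = 0.042).

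Enpp2 kept its call when any 1 of the 4 libraries was left out, with adjusted p from 0.0159 to 0.0409. Has2 and Lpar4 kept theirs in 2 of these 4 fits, with adjusted p up to 0.0709 and 0.0694. Spink1 was called in none of them (adjusted p 0.105 to 0.290) and also not when the fit held these 4 libraries alone (adjusted p = 0.0805). These genes stood on a list of 18 tested genes for secreted and adhesion proteins that was picked from earlier results of these libraries, of which 5 fell and 2 rose, so their direction there is no independent evidence.

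Other genes among the 12 largest decreases, taken over called genes with a symbol, at least 10 CPM and at least 50% unique fragments, served varied functions. Nefl, the neurofilament light chain gene, fell from 71.0 and 59.5 to 24.1 and 26.1 CPM (log2 fold change -1.38, SE 0.20). Slc27a2, a transporter and activator of very long-chain fatty acids, went from 86.4 and 79.4 to 37.2 and 36.9 CPM (log2 fold change -1.16, SE 0.11, adjusted p = 0.00546). In both the groups were well apart, and the lower FBS/LIF library was still over 2 times the higher VitC/LIF library. Kcnj3, a potassium channel gene (log2 fold change -1.28), Vrtn (-1.38) and Kctd12b (-1.52) were also among them, as were Bnip3 and Pfkl, which are described below. Of these 7 genes only Slc27a2 was called in any fit without 1 of the 4 libraries, in 1 fit of 4, and Vrtn and Kcnj3 missed the threshold when the fit held these libraries alone (adjusted p = 0.0504 and 0.0659). The neuroectoderm marker Pax6 was at 6.10 to 6.61 CPM in FBS/LIF and 2.76 to 3.07 CPM in VitC/LIF. Of 8 tested neuroectoderm genes 6, Nefl among them, were lower in both VitC/LIF libraries than in both FBS/LIF libraries. Tubb3 went the other way, at 75.3 and 64.1 CPM in FBS/LIF and 108 and 90.1 CPM in VitC/LIF. The part of neuroectoderm cells in the lower Nefl was not tested.

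Transcripts of the response to low oxygen fell in part. Cells sense oxygen through prolyl hydroxylases that tag the HIF alpha subunits for degradation. When the tagging fails, HIF pairs with Arnt and switches on genes for glucose uptake, glycolysis, lactate export, mitophagy and matrix modification. Of 39 tested hypoxia-response genes 6 fell and 0 rose in edgeR's test, with a median log2 fold change of -0.44 against -0.01 for all genes. DESeq2 called 12 lower and 1 higher, and at an unadjusted p under 0.05 edgeR had 19 lower and 3 higher. Both VitC/LIF libraries were below both FBS/LIF libraries in 25 of the 39 and above them in 3, against 22.1% and 20.8% of all tested genes.

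Upstream stretches of 3 of the genes that fell are shown because HIF binds a short core, ACGTG or GCGTG, on either strand. These are the 200 bases before the annotated start, in RefSeq's GRCm38.p6 mouse assembly, read in the direction of the gene. Capitals mark every match to either core on either strand, and CACGTG reads as a match on both strands. Bnip3 lies at chr7:138909507-138909706 on the minus strand, Ldha at chr7:46845604-46845803 on the plus strand and P4ha1 at chr10:59323096-59323295 on the plus strand.
Bnip3: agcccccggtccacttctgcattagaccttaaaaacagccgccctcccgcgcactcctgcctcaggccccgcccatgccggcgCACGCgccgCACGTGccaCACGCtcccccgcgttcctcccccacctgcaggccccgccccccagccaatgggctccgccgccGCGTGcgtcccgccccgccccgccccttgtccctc
Ldha: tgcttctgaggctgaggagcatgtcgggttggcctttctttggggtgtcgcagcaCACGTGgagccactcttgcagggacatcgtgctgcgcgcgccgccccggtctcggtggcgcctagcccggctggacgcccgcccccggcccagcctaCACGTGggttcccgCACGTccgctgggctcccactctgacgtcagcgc
P4ha1: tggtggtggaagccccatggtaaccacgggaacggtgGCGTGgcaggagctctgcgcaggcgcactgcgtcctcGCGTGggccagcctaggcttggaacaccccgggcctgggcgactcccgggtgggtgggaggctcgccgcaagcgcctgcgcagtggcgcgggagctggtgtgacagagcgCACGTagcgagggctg
The stretches held 5, 5 and 3 matches. In windows of 300 bases, from 250 before the start to 50 after it, ACGTG or GCGTG was found on either strand in 10 of 10 windows of the 7 called hypoxia and glycolysis genes with an entry in the table. It was found in 53 of 67 windows (79.1%) of all members of these 2 lists, and in 14379 of 32841 windows of all genes (43.8%). In the germline genes described below it was found in 4 of 4 windows of the called genes, which rose, and in 36 of 45 windows (80%) of all members, so the share was not particular to genes that fell. Both cores contain a CpG, and the windows of the called genes had a median of 24.5 CpG against 7 for all genes. The part of CpG content in this share was not tested, and a match is not a shown binding site.

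Bnip3 (ENSMUSG00000078566), a receptor for the removal of mitochondria, showed the largest decrease among the 6. It measured 83.1 and 79.3 CPM in FBS/LIF and 32.6 and 31.9 CPM in VitC/LIF (adjusted p = 0.0293), and its relative Bnip3l had a log2 fold change of -0.14 (SE 0.11, adjusted p = 0.77). The collagen prolyl hydroxylase subunit gene P4ha1 went from 35.8 and 40.8 to 18.2 and 17.2 CPM (SE 0.14, adjusted p = 0.0178). Plod2, a lysyl hydroxylase gene that prepares collagen for cross-linking, went from 70.3 and 74.7 to 42.7 and 42.5 CPM (log2 fold change -0.77, SE 0.09, adjusted p = 0.0178). For both collagen enzymes the libraries of a medium were close together and the media did not overlap. Of 15 tested collagen hydroxylases and partners P4ha1 and Plod2 were the 2 that fell and 0 rose (unadjusted, 3 lower and 1 higher; DESeq2, 2 lower and 0 higher), and the list median was -0.01. The partner subunit gene P4hb was at 505 and 469 CPM in FBS/LIF and 443 and 427 CPM in VitC/LIF (log2 fold change -0.16, adjusted p = 0.79).

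Glucose transport, glycolysis and lactate export contributed the other decreases. The glucose transporter gene Slc2a1, whose protein also carries oxidized vitamin C, was at 414 and 386 CPM in FBS/LIF and at 218 and 222 CPM in VitC/LIF (adjusted p = 0.0216). Pfkl, the liver-type subunit of phosphofructokinase, the committing enzyme of glycolysis, was at 237 and 249 CPM against 107 and 97.8 CPM (SE 0.17, adjusted p = 0.0216). The genes of the other subunits had positive log2 fold changes and did not pass the test: Pfkp had a log2 fold change of 0.36 (SE 0.12, adjusted p = 0.29) and Pfkm one of 0.43 (SE 0.16, adjusted p = 0.34). In none of the 3 genes did the media overlap. Ldha (ENSMUSG00000063229), which turns pyruvate into lactate, was among the most abundant transcripts that fell. It stood at 1245 and 1213 CPM in FBS/LIF and 583 and 607 CPM in VitC/LIF (log2 fold change -1.05, SE 0.15, adjusted p = 0.0263). The other lactate dehydrogenase subunit gene, Ldhb, was at 49.4 and 68.9 against 95.8 and 89.3 CPM (log2 fold change 0.65, SE 0.15, adjusted p = 0.11). Slc16a3, the lactate exporter MCT4, was at 90.8 and 83.0 against 43.0 and 40.1 CPM (a log2 fold change of -1.07, SE 0.17, adjusted p = 0.0405). The enolase gene Eno1 was at 847 and 943 against 545 and 511 CPM, with only 39.0% of its fragments in FBS/LIF mapping to it alone, so near-identical copies may share its reads.

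Of 21 tested glycolysis genes 5 fell and 0 rose (unadjusted, 10 lower and 4 higher; DESeq2, 8 lower and 2 higher), with a median of -0.34. Ldha, Slc2a1 and Eno1 are on both lists, so the lists are not separate evidence. Tpi1 (log2 fold change -0.95, adjusted p = 0.11), Pgk1 (-0.79, adjusted p = 0.088), Aldoa (-0.69, adjusted p = 0.13) and the pyruvate kinase gene Pkm (-0.62, adjusted p = 0.27) had both VitC/LIF libraries below both FBS/LIF libraries but missed the threshold. Hk2, the hexokinase gene, overlapped between media (log2 fold change 0.03), and Hk1 stood at 11.0 and 16.3 against 28.7 and 26.6 CPM (log2 fold change 1.02, adjusted p = 0.068). Ak4 was the highest member of the hypoxia list, at a log2 fold change of 0.79 (adjusted p = 0.062). The list was therefore uneven, with members such as Vegfa, Pdk1, Kdm3a and Hilpda at log2 fold changes between -0.20 and 0.00.

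All 8 called hypoxia and glycolysis genes lost the call when any of the 4 libraries was left out, with adjusted p between 0.114 and 0.318, while their log2 fold changes stayed between -1.36 and -0.68. Plod2 and Eno1 also missed it when the fit held these 4 libraries alone (adjusted p = 0.0635 and 0.0742).

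**Figure D2:**
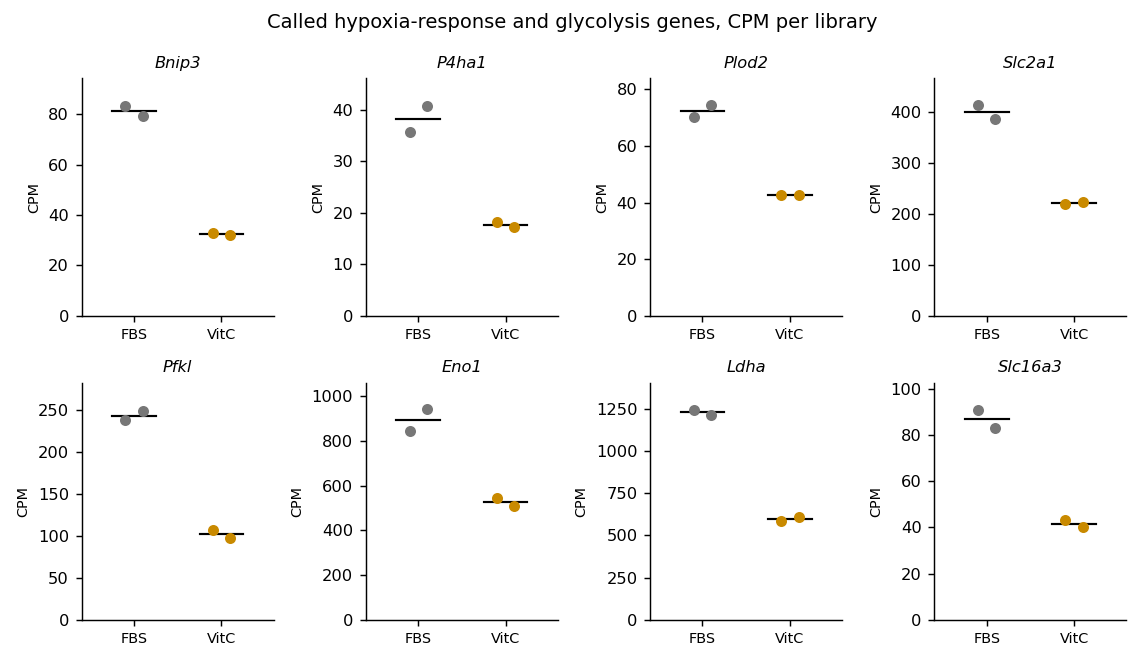
Each panel shows CPM in the 2 FBS/LIF and 2 VitC/LIF libraries (points, with the mean as a bar) for a called gene of the hypoxia or glycolysis list, on axes that start at 0. In each of the 8 panels both VitC/LIF points lie below both FBS/LIF points, from Bnip3 at about 32 against 81.2 CPM to Eno1 at 545 and 511 against 847 and 943 CPM.

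The regulators of the pathway did not pass the test at the level of their transcripts. Hif1a, the oxygen-regulated subunit gene, was at 257 and 244 CPM in FBS/LIF and at 266 and 242 CPM in VitC/LIF (log2 fold change 0.02, SE 0.11, adjusted p = 0.99), and the 2 media overlapped. Of 11 tested HIF subunits and regulators edgeR called 0 in either direction, with 2 lower and 0 higher at an unadjusted p under 0.05 and 1 lower by DESeq2. Among the prolyl hydroxylases that tag HIF, Egln3 was at 4.99 and 5.48 against 2.10 and 2.66 CPM (log2 fold change -1.14, adjusted p = 0.074) and Egln1 had a log2 fold change of -0.53 (adjusted p = 0.26). Both of these are HIF target genes as well. Egln2 was at 41.1 and 39.8 against 48.0 and 48.6 CPM (log2 fold change 0.26, adjusted p = 0.80), and the tagging partner Vhl at a log2 fold change of -0.05.

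The lists of oxidative phosphorylation, the respiratory chain of mitochondria, held no called gene. None of 28 nuclear genes of oxidative phosphorylation was called by edgeR or DESeq2, and 0 had an unadjusted p under 0.05. Their median log2 fold change was 0.06. For the 13 genes of the mitochondrial genome all of these counts were also 0, with a median of 0.34. The mitochondrial cytochrome oxidase gene mt-Co1 was at 3752 and 3311 CPM in FBS/LIF and 4240 and 3335 CPM in VitC/LIF, and the media overlapped.

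Some genes normally reserved for germ cells rose. In the embryo and in somatic cells many of these genes are silenced by DNA methylation of CpG-rich promoters, and they are switched on when the germ line is reprogrammed. Of 33 tested germline genes 4 rose and 0 fell in edgeR's test, with a median log2 fold change of 0.64. DESeq2 called 14 higher and 0 lower, and at an unadjusted p under 0.05 edgeR had 16 higher and 2 lower. Both VitC/LIF libraries were above both FBS/LIF libraries in 23 of the 33 and below them in 4, against 20.8% and 22.1% of all tested genes. The 33 were those of 43 list members with an identifier that passed the count filter, and 3 of them averaged under 1 CPM in both media. A low gene can pass this filter through its higher medium, and the list was written with earlier results known. These counts of direction are therefore no independent evidence.

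Stretches before the start of 3 of these genes are shown because DNA methylation acts at CpG. They cover the 200 bases before the annotated start in the same RefSeq assembly, with every CpG in capitals. Stra8 lies at chr6:34920748-34920947 on the plus strand, Dazl at chr17:50293621-50293820 on the minus strand and Sohlh2 at chr3:55181844-55182043 on the plus strand.
Stra8: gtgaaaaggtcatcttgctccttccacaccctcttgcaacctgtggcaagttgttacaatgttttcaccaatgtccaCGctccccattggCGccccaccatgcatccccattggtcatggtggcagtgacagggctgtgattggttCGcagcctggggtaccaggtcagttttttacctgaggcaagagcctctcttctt
Dazl: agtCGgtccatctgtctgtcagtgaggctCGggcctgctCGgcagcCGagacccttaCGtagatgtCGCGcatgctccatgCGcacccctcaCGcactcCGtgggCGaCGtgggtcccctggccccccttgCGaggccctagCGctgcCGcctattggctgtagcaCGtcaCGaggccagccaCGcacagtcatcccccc
Sohlh2: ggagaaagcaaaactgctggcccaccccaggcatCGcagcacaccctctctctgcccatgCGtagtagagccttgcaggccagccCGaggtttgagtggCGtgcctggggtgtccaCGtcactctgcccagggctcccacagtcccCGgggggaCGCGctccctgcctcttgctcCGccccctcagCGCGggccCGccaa
The 200 bases hold 3 CpG in Stra8, 18 in Dazl and 12 in Sohlh2. Over the 300-base windows the 4 called genes had a median of 15 CpG, the 45 windows of all germline members one of 17 and all genes one of 7. DNA methylation of these windows was not analysed here.

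Stra8 (ENSMUSG00000029848), which drives entry into meiosis under retinoic acid, showed the largest called increase of the list. Its 5.36 and 4.08 CPM in FBS/LIF became 26.1 and 23.9 CPM in VitC/LIF, a log2 fold change of 2.40 (SE 0.29, adjusted p = 0.0178). Sohlh2, a transcription factor gene of early spermatogonia and oocytes, went from 2.91 and 3.23 to 12.8 and 10.9 CPM (a log2 fold change of 1.95, SE 0.24, adjusted p = 0.0178). The RNA-binding protein gene Dazl, a licensing factor of germ cell development, went from 8.83 and 7.87 to 22.1 and 20.9 CPM (log2 fold change 1.37, SE 0.19, adjusted p = 0.0216). Rpl10l, a testis form of a ribosomal protein gene, went from 27.1 and 23.7 to 61.2 and 54.8 CPM (log2 fold change 1.19, SE 0.21, adjusted p = 0.0483). Each of the 4 more than doubled, and no FBS/LIF library reached a VitC/LIF library.

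Further members had groups that did not overlap but missed the threshold, and those named here were picked after their values were seen. The cohesin gene Smc1b was at 2.64 and 2.86 against 11.5 and 11.9 CPM (log2 fold change 2.09, adjusted p = 0.0512), Hormad1, a protein of meiotic chromosome axes, at 8.46 and 6.84 against 23.2 and 21.6 CPM (log2 fold change 1.55, adjusted p = 0.062), and Fkbp6 at a log2 fold change of 1.93 (adjusted p = 0.062). The Piwi family gene Piwil2 (log2 fold change 1.07, adjusted p = 0.14), Tex15 (0.89, adjusted p = 0.088) and Tex19.1 (0.73, adjusted p = 0.13), which guard the germ line against transposons, were also above in both VitC/LIF libraries. The germ cell gene Ddx4 was among those lower in both VitC/LIF libraries, at 30.0 and 35.7 against 22.85 and 22.96 CPM (log2 fold change -0.52, adjusted p = 0.31), as was Tdrd1 (-0.87, adjusted p = 0.20).

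Outside the list 5 further called genes with known germline expression stood out, picked after their values were seen. The testis regulator gene Dmrt1 rose from 31.2 and 33.4 to 53.4 and 56.8 CPM (log2 fold change 0.77), and Morc1, which silences transposons in male germ cells, from 83.6 and 67.1 to 149 and 136 CPM (0.91). Rhox6 rose by 1.51 and the ribosomal protein gene Rpl39l by 1.52 on the log2 scale. Rec114, a gene of meiotic DNA break formation, was at 0.462 and 0.422 against 5.47 and 5.96 CPM, a log2 fold change of 3.67 (SE 0.57, adjusted p = 0.0435). The 4 called germline list members and these 5 genes lost the call when any of the 4 libraries was left out, the 4 list members with adjusted p between 0.122 and 0.350. Dmrt1, Morc1 and Rhox6 also missed the threshold in the fit of these 4 libraries alone (adjusted p = 0.0682, 0.0682 and 0.0635).

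**Figure D3:**
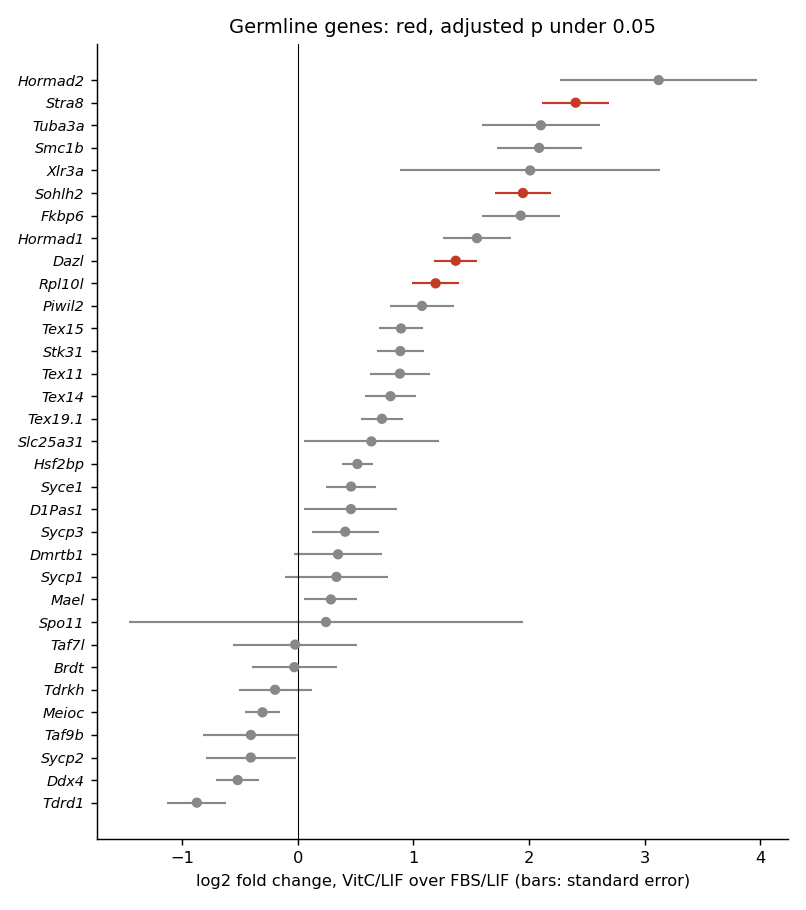
Log2 fold changes, VitC/LIF over FBS/LIF, of the 33 tested germline genes, with standard errors as bars, sorted by size. Red marks the 4 genes with an adjusted p under 0.05 (Stra8, Sohlh2, Dazl, Rpl10l); Hormad2, the topmost point, is at low levels with a wide error, and Tdrd1 is lowest at -0.87.

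A small set of genes of the 2-cell-like state, a rare fraction of stem cells that resembles the early embryo, had 4 tested members. Zscan4f was called higher, at 3.38 and 3.70 against 11.8 and 13.7 CPM (log2 fold change 1.85, adjusted p = 0.0329), and 0 fell. Only 9.87% of its FBS/LIF estimate came from fragments unique to it, because the Zscan4 copies are nearly identical, and on unique fragments it missed the threshold (adjusted p = 0.0689). Zscan4c was at 2.08 and 1.92 against 8.94 and 7.75 CPM (log2 fold change 2.06, adjusted p = 0.10). In every one of the 4 genes both VitC/LIF libraries were above both FBS/LIF libraries (unadjusted, 4 higher and 0 lower; DESeq2, 2 higher and 0 lower). The 4 are Zscan4f, Zscan4c, Zscan4d and Pramef25, out of 17 list members with an identifier. Pramef25 was at 0.0925 and 0.0469 against 0.662 and 0.868 CPM. A gene this low can pass the count filter through its higher medium, and the Zscan4 copies share fragments. Their common direction is therefore no independent evidence. The individual copies are uncertain, and the Zscan4f call was lost when any of the 4 libraries was left out (adjusted p up to 0.264).

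Among the proteins that add, read and remove DNA methylation, 1 cofactor was called. Dnmt3l (ENSMUSG00000000730), which activates the de novo DNA methyltransferases without being an enzyme itself, fell from 301 and 307 to 159 and 160 CPM (a log2 fold change of -0.93, SE 0.13, adjusted p = 0.0216). The pairs of libraries lay close together and far apart from each other. Dnmt3l was the only called member of 20 genes of this machinery (unadjusted, 1 lower and 2 higher; DESeq2, 1 lower and 1 higher), and the list median was 0.05. Its partner Dnmt3b was at 633 and 631 against 535 and 508 CPM (a log2 fold change of -0.28, SE 0.13, adjusted p = 0.51), and Dnmt3a overlapped (0.20). Tet1 was at 306 and 459 CPM in FBS/LIF and 278 and 376 CPM in VitC/LIF, a spread between replicates wider than the difference between media (log2 fold change -0.23, SE 0.38). Tet2 (0.08, SE 0.19) and Tet3 (-0.37, SE 0.42) overlapped as well. Uhrf1, which guides maintenance methylation, was at 258 and 304 against 388 and 351 CPM (log2 fold change 0.39, adjusted p = 0.28).

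Among 41 genes of the JmjC and AlkB families and related hydroxylases, a group that includes demethylases of histones and nucleic acids, edgeR called 0. An unadjusted p under 0.05 was reached by 3 lower and 1 higher, against 5.61% and 5.62% of all genes. DESeq2 called 2 lower and 0 higher, against 1.25% and 1.66%. The lowest log2 fold changes were those of the aspartyl hydroxylase gene Asph (-0.70, adjusted p = 0.098), Phf2 (-0.62) and Kdm7a (-0.57). The histone demethylase gene Kdm4c came closest to the threshold, at 186 and 182 against 133 and 129 CPM (-0.49, adjusted p = 0.084). Among 13 genes that transport or recycle vitamin C or use it in other enzymes, 1 rose and 1 fell (unadjusted, 1 higher and 4 lower; DESeq2, 1 higher and 1 lower). The vitamin C transporter gene Slc23a2 was at 44.2 and 44.2 against 50.8 and 47.7 CPM (log2 fold change 0.16, adjusted p = 0.71) and Slc23a1 at a log2 fold change of -0.44 (adjusted p = 0.44). Glrx, the glutaredoxin gene whose protein can reduce oxidized vitamin C, rose from 0.786 and 1.03 to 3.48 and 3.30 CPM (a log2 fold change of 1.89, SE 0.23, adjusted p = 0.0178), and Slc2a1, described above, fell. Glrx lost the call without any 1 of the 4 libraries (adjusted p up to 0.151) and in the fit of these 4 alone (adjusted p = 0.0909), and Dnmt3l without any 1 of them (adjusted p up to 0.225).

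Genes of the naive state, the ground state of the early epiblast, showed 2 increases and 1 decrease among 29 in edgeR's test (unadjusted, 10 higher and 1 lower; DESeq2, 5 higher and 1 lower), with a median log2 fold change of 0.20. Both VitC/LIF libraries were above both FBS/LIF libraries in 14 of the 29 and below them in 3, against 20.8% and 22.1% of all tested genes. Tbx3 (ENSMUSG00000018604), a transcription factor gene of LIF-dependent self-renewal, rose from 16.6 and 23.8 to 49.96 and 67.3 CPM (log2 fold change 1.54, SE 0.25, adjusted p = 0.0352). Pecam1, a surface molecule of naive cells, rose from 36.6 and 34.2 to 58.8 and 55.9 CPM (a log2 fold change of 0.70, SE 0.11, adjusted p = 0.0363). The decrease was in Dnmt3l, a DNA methylation cofactor that naive and serum-grown cells express. No other member passed edgeR's test. Prdm14, a repressor of DNA methylation genes in naive cells, was at 8.04 and 8.86 against 15.0 and 13.3 CPM (log2 fold change 0.74, adjusted p = 0.25), and Tfcp2l1 at 106 and 151 against 184 and 215 CPM (0.64, adjusted p = 0.41). Nanog (0.42, adjusted p = 0.25) had groups that did not overlap, Esrrb (0.30, adjusted p = 0.71) overlapped, and Pou5f1 was below in both VitC/LIF libraries, at 946 and 818 against 755 and 716 CPM (-0.26, adjusted p = 0.68). Sox2 was at 669 and 662 against 728 and 799 CPM (0.20, adjusted p = 0.84).

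Of 27 genes of the primed epiblast, the later state that precedes gastrulation, 2 fell and 1 rose in edgeR's test (unadjusted, 10 lower and 1 higher; DESeq2, 9 lower and 1 higher), with a median of -0.38. Sall2 fell from 23.4 and 26.1 to 12.6 and 14.2 CPM (a log2 fold change of -0.89, SE 0.13, adjusted p = 0.027). The gene of the insulin-like growth factor binding protein Igfbp3 fell from 33.2 and 31.5 to 20.8 and 18.9 CPM (log2 fold change -0.70, SE 0.10, adjusted p = 0.0271). Lefty2, a secreted antagonist of Nodal, rose from 79.1 and 84.2 to 131 and 120 CPM (log2 fold change 0.63, SE 0.11, adjusted p = 0.0483). Its close relative Lefty1 lay the other way, at 210 and 166 against 127 and 116 CPM (log2 fold change -0.63, SE 0.14, adjusted p = 0.099). No group of these 4 genes overlapped. Fgf15, a growth factor gene, was at 6.15 and 6.84 against 2.82 and 2.31 CPM (log2 fold change -1.34, adjusted p = 0.092) and the transcription factor gene Zic2 at 17.0 and 16.8 against 8.17 and 9.72 CPM (-0.92, adjusted p = 0.062). Both VitC/LIF libraries were below both FBS/LIF libraries in 17 of the 27 and above in 3, against 22.1% and 20.8% of all tested genes.

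Other regulators of this window moved too. Lin28b, which blocks the maturation of let-7 microRNAs, fell from 95.0 and 89.2 to 53.5 and 51.9 CPM (a log2 fold change of -0.81, SE 0.09, adjusted p = 0.0158), the only call among 18 core stemness genes (unadjusted, 2 lower and 1 higher; DESeq2, 1 lower and 0 higher). Of 14 targets of Nodal and activin signalling Fst and Skil fell and Lefty2 rose (unadjusted, 6 lower and 3 higher; DESeq2, 4 lower and 2 higher). The activin-binding protein gene Fst went from 13.2 and 14.8 to 7.73 and 5.21 CPM (a log2 fold change of -1.11, SE 0.19, adjusted p = 0.0438), and Skil, a repressor of SMAD signalling, from 434 and 481 to 262 and 261 CPM (-0.81, SE 0.12, adjusted p = 0.0316). The ligand gene Nodal was at 76.8 and 69.3 against 52.99 and 50.2 CPM (-0.50, SE 0.12, adjusted p = 0.12). Every called gene of the naive, primed, core stemness and Nodal lists lost the call when any of the 4 libraries was left out, with adjusted p between 0.0876 for Fst and 0.369 for Lefty2. Tbx3, Pecam1, Sall2, Igfbp3, Lefty2, Lin28b, Fst and Skil missed the threshold in the fit of these 4 libraries alone, with adjusted p from 0.0504 to 0.132. Pecam1 missed it on unique fragments too (adjusted p = 0.0648), and Lefty2 without the filter on low counts (adjusted p = 0.0747).

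**Figure D4:**
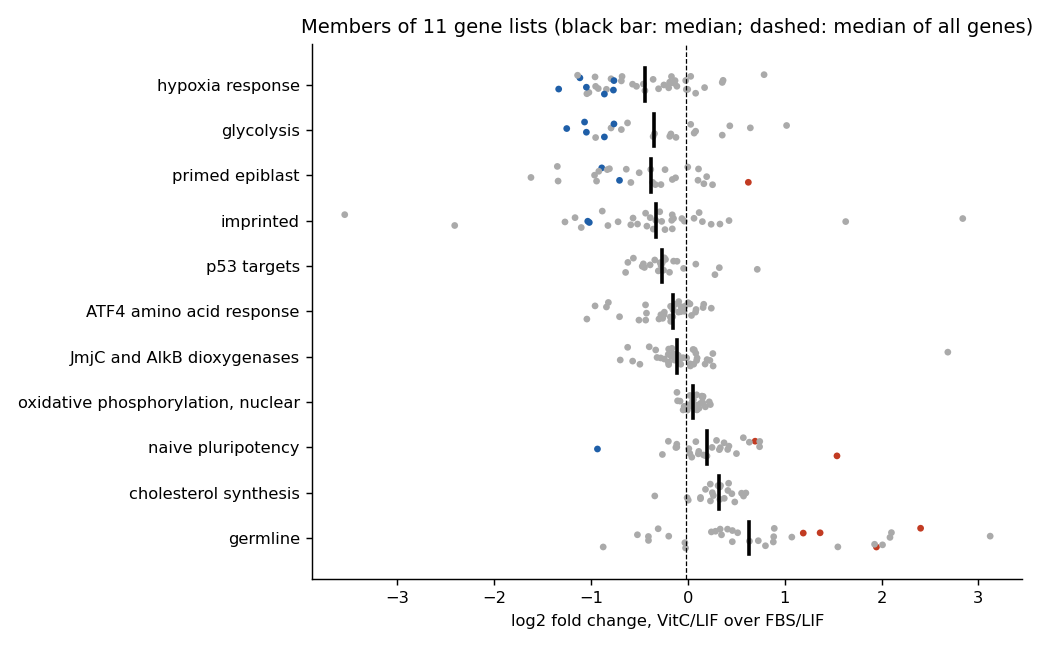
Each point is a tested member of 1 of 11 gene lists, placed by its log2 fold change, VitC/LIF over FBS/LIF, with red for called higher, blue for called lower and grey for not called (the vertical jitter has no meaning). Black bars are list medians, from -0.44 for hypoxia response to 0.64 for germline genes, and the dashed line is the median of all genes at -0.01. Some lists not shown had medians outside this range. Among them were neuroectoderm at -0.74 (8 genes), primitive endoderm at -0.60 (20 genes) and the 2-cell-like list at 1.96 (4 genes).

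Imprinted genes are expressed from 1 parental allele under the control of inherited DNA methylation. Among 35 of them edgeR called 2 lower and 0 higher (unadjusted 12 lower and 3 higher, DESeq2 6 lower and 3 higher), with a median of -0.33. In 21 of the 35 both VitC/LIF libraries lay below both FBS/LIF libraries and in 5 above, against 22.1% and 20.8% of all tested genes. The cell cycle inhibitor gene Cdkn1c (ENSMUSG00000037664) fell from 69.7 and 60.2 to 32.7 and 30.8 CPM (log2 fold change -1.03, SE 0.15, adjusted p = 0.0266). Phlda2, a growth inhibitor of the placenta and a neighbour of Cdkn1c in the same imprinted cluster, fell from 49.6 and 43.5 to 22.6 and 23.4 CPM (log2 fold change -1.02, SE 0.14, adjusted p = 0.0216). In the Dlk1 and Meg3 domain no member passed: Rtl1 was at 50.3 and 37.1 against 24.95 and 24.4 CPM (log2 fold change -0.82, adjusted p = 0.088) and Meg3 at 93.9 and 108 against 55.4 and 67.3 CPM (-0.72, adjusted p = 0.56). H19 was at 2.22 and 4.41 against 11.0 and 9.49 CPM (log2 fold change 1.63, adjusted p = 0.068), whereas Igf2, which shares its control region, overlapped (-0.16). Cdkn1c and Phlda2 both lost the call when any of the 4 libraries was left out, with adjusted p between 0.105 and 0.235.

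The strongest increases came from genes of diverse roles. Mep1b (ENSMUSG00000024313), a membrane metalloprotease gene, was at 6.01 and 6.37 CPM in FBS/LIF and 44.5 and 44.4 CPM in VitC/LIF (log2 fold change 2.84, SE 0.24, adjusted p = 0.00266). The expressed sequence AI662270 was at 0.878 and 0.375 against 17.6 and 15.96 CPM (SE 0.39, adjusted p = 0.00266), close to absent in FBS/LIF. Epha4 (ENSMUSG00000026235), an ephrin receptor gene, was at 20.0 and 19.3 against 59.1 and 58.5 CPM (log2 fold change 1.58, SE 0.12, adjusted p = 0.00222), with replicates nearly identical in each medium. These 3 genes were several times higher in both VitC/LIF libraries than in either FBS/LIF library. Gstp2 (ENSMUSG00000038155), a glutathione transferase gene, was at 6.93 and 6.61 against 30.6 and 27.6 CPM (log2 fold change 2.10, SE 0.14, adjusted p = 0.00157). Its copy Gstp1 was at 36.2 and 33.7 against 62.8 and 55.4 CPM (log2 fold change 0.76, adjusted p = 0.16), and 58.4% of the FBS/LIF estimate of Gstp2 was unique to it, so the split between the copies is uncertain. Gstp2 was the only edgeR call among 37 antioxidant and NRF2 target genes (unadjusted, 4 higher and 2 lower; DESeq2, 3 higher and 0 lower).

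Epha4, Gstp2 and AI662270 kept their calls whichever of the 4 libraries was left out, with adjusted p up to 0.0400, 0.0284 and 0.0400. Mep1b kept its call in 3 of these 4 fits (adjusted p up to 0.0595). Genes of detoxification, Cyp2b23 (log2 fold change 2.25, SE 0.30, adjusted p = 0.0216) and the arsenite methyltransferase gene As3mt (1.72, SE 0.21, adjusted p = 0.0178), rose as well. Lama3, a laminin chain gene of epithelial basement membranes, rose from 2.27 and 4.36 to 16.2 and 15.6 CPM (2.26, SE 0.34, adjusted p = 0.0316). Kbtbd11 (1.84) and Fam81a (1.57) rose too. Cyp2b23, As3mt, Lama3, Kbtbd11 and Fam81a lost the call when any of the 4 libraries was left out, with adjusted p up to 0.247, and Lama3 and Kbtbd11 in the fit of these 4 alone (adjusted p = 0.0725 and 0.0506).

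Among 24 contractile genes the 2 that rose were actins of muscle, and 0 fell (unadjusted, 4 higher and 1 lower; DESeq2, 2 higher and 0 lower). Acta2 (ENSMUSG00000035783), the smooth muscle actin gene, was at 7.26 and 7.499 CPM in FBS/LIF and 29.2 and 31.4 CPM in VitC/LIF (log2 fold change 2.04, SE 0.21, adjusted p = 0.0107). Acta1, the skeletal muscle form, was at 4.07 and 3.33 against 11.0 and 9.72 CPM (a log2 fold change of 1.48, SE 0.25, adjusted p = 0.0435). Other smooth muscle genes were not called: Tagln was at 106 and 94.0 against 112 and 104 CPM (log2 fold change 0.11, adjusted p = 0.92) and Cnn1 at a log2 fold change of -0.14. Of 10 markers of fibroblasts, the usual feeder cells, 9 were under 1 CPM on average, and Prrx1 and Postn were at 0 in all 4 libraries. Their sum was 4.11 to 4.69 CPM in FBS/LIF and 5.73 to 6.02 CPM in VitC/LIF, and the members went both ways. Col1a1 was at 0.693 to 0.937 against 2.21 to 2.55 CPM, whereas Col3a1 was at 0.416 to 0.516 against 0 to 0.0578 CPM and Col1a2 at 0.601 to 0.609 against 0.289 to 0.331 CPM. Their part in the higher Acta2 was not tested. Both actins lost the call when any of the 4 libraries was left out (adjusted p up to 0.151 for Acta2 and 0.298 for Acta1), and Acta1 in the fit of these 4 alone (adjusted p = 0.0639).

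Several stress and metabolic programs held no called gene. For 36 genes of the amino acid response driven by ATF4 edgeR called 0, with 5 lower and 0 higher at an unadjusted p under 0.05 and 3 lower and 0 higher by DESeq2, and the median was -0.15. In 21 of the 36 both VitC/LIF libraries lay below both FBS/LIF libraries and in 3 above, against 22.1% and 20.8% of all tested genes. The cystathionine lyase gene Cth had 160 and 134 CPM in FBS/LIF and 99.9 and 80.7 CPM in VitC/LIF (log2 fold change -0.70, adjusted p = 0.096). For 22 genes of cholesterol synthesis edgeR also called 0, with 8 higher and 0 lower unadjusted, 2 higher and 0 lower by DESeq2, and a median of 0.32. The squalene synthase gene Fdft1 was at 61.9 and 57.8 against 87.6 and 90.9 CPM (a log2 fold change of 0.58, SE 0.14, adjusted p = 0.13). In 16 of the 22 genes both VitC/LIF libraries were above both FBS/LIF libraries, against 20.8% of all tested genes. For 23 targets of p53 edgeR called 0, with 6 lower and 2 higher unadjusted, 3 lower and 1 higher by DESeq2, and a median of -0.26. In 12 of the 23 both VitC/LIF libraries lay below both FBS/LIF libraries and in 2 above. Perp was closest, at 76.7 and 72.9 against 47.2 and 48.7 CPM (-0.64, adjusted p = 0.0515).

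Lineage and signalling lists gave few calls. Among 16 mesendoderm genes edgeR called 0 (unadjusted, 3 lower and 2 higher; DESeq2, 0), among 20 primitive endoderm genes 0 (unadjusted, 5 lower and 1 higher; DESeq2, 2 lower) and among 13 trophectoderm genes 0 (unadjusted, 1 higher; DESeq2, 0). Median log2 fold changes were -0.41 for mesendoderm, -0.60 for primitive endoderm, -0.27 for trophectoderm and -0.74 for neuroectoderm genes. The 8 neuroectoderm genes held the decrease in Nefl (unadjusted 3 lower and 1 higher, DESeq2 1 lower and 0 higher). The 17 fibroblast genes held the increase in Acta2 (unadjusted 3 lower and 3 higher, DESeq2 0 lower and 1 higher). The 34 matrix genes held the decrease in Has2 (unadjusted 8 lower and 2 higher, DESeq2 3 lower and 1 higher). The 16 genes of proline metabolism held the decrease in P4ha1 (unadjusted 3 lower and 1 higher, DESeq2 1 lower and 0 higher). Targets of LIF and STAT3 (17 genes, median 0.11), of FGF and ERK (19 genes, median -0.06), of Wnt (16 genes, median -0.29) and of BMP (12 genes, median -0.29) had 0 edgeR calls. At an unadjusted p under 0.05 they had 2, 1, 1 and 3 genes higher and 1, 2, 4 and 2 lower, and DESeq2 called 1, 1, 0 and 1 higher and 0, 1, 0 and 1 lower. The 12 genes of the Polycomb complex PRC2 (unadjusted, 2 higher) and the 18 genes of MHC class I (unadjusted, 1 higher and 2 lower) had 0 calls by either tool.

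The levels of the called genes in the other 3 media differed from gene to gene. Enpp2 was at 17.3 ± 0.96 CPM in FBS/LIF, 2.68 ± 0.27 in VitC/LIF, 0.276 in 2i/LIF, 27.7 in F/A and 50.5 in L-Pro/LIF (means of 2 libraries, SD where given). Has2 followed the same order of media except that F/A, at 50.6 and 62.0 CPM, overlapped L-Pro/LIF at 57.4 and 53.7 CPM. Bnip3 in VitC/LIF, at 32.6 and 31.9 CPM, was below every library of the other 4 media, which ran from 44.8 CPM in F/A to 139 CPM in L-Pro/LIF. Pfkl and Ldha in VitC/LIF were also below the libraries of all other media. For Ldha the nearest was F/A replicate 1 at 818 CPM.

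Among the genes that rose, Stra8 was high in VitC/LIF alone, with 26.1 and 23.9 CPM against at most 0.583 CPM in 2i/LIF, L-Pro/LIF and F/A and at most 5.36 CPM in FBS/LIF. Dazl was at 21.5 ± 0.85 CPM in VitC/LIF, 11.9 CPM in 2i/LIF and 2.01 CPM or less in L-Pro/LIF and F/A. Epha4 and Tbx3 were higher still in 2i/LIF, at 269 and 157 CPM on average, and Mep1b was at 26.4 and 23.5 CPM there, between FBS/LIF and VitC/LIF. Acta2 was at 1.17 CPM in 2i/LIF and 12.6 CPM in L-Pro/LIF, so VitC/LIF held its highest level of the 5 media. Dnmt3l in VitC/LIF, at 159 CPM, lay between FBS/LIF at 304 CPM and 2i/LIF at 107 CPM, and it was under 1 CPM in F/A. These are levels only, since the comparisons of the media with FBS/LIF share its 2 libraries.

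**Figure D5:**
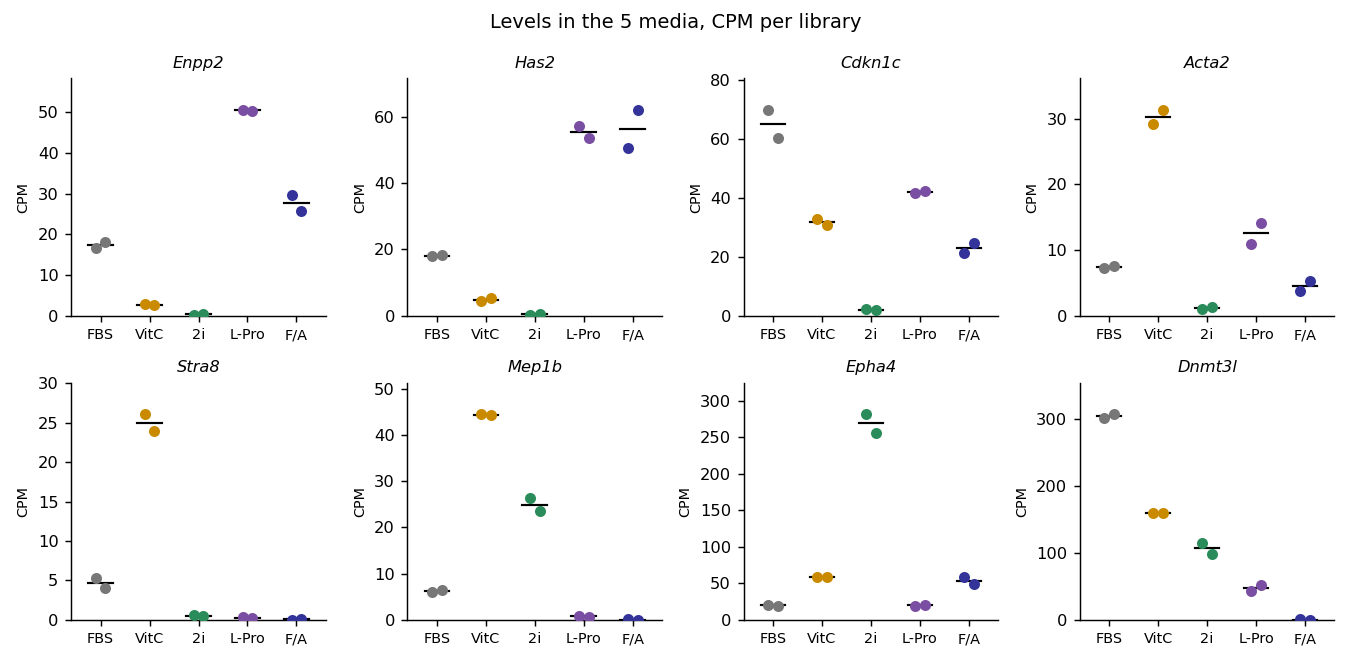
CPM of 8 called genes in the 2 libraries of each of 5 media (points, with means as bars; FBS, VitC, 2i, L-Pro and F/A along the x axis), on axes that start at 0. Stra8, Mep1b and Acta2 are highest in VitC/LIF, Epha4 is highest in 2i/LIF at 269 CPM, Enpp2 is lowest in 2i/LIF and highest in L-Pro/LIF, and Dnmt3l and Cdkn1c are highest in FBS/LIF.

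Mapping limits apply to some calls. Tsnax had the largest fold change of all called genes, 171-fold lower, but 0% of its estimate came from fragments unique to it, so the value depends wholly on how shared fragments were divided. Eno1 and Zscan4f were the other 2 called genes with under 50% unique fragments. Pak3, a kinase gene called lower at 5.13 and 3.80 against 0.276 and 0.578 CPM (log2 fold change -3.37, edgeR adjusted p = 0.0297), had more unique fragments than its estimate, 145.3% of it in FBS/LIF and 773.3% in VitC/LIF. On unique fragments its log2 fold change was -0.98 and the call was lost (adjusted p = 0.248). Of the 108 called genes 107 could be tested on unique fragments, all 107 with the same sign, and 102 of them were called there.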

How the data were processed

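Groups of the 10 RNA-seq libraries came from the sample titles. The deposited files give, per the file headers, a natural log of expression in FPKM units, a count of unique hits and an effective length per gene, in the layout of mmseq output. The submitters' processing notes name CASAVA, TopHat2 2.0.13, Bowtie, HTSeq 0.6.1p1, DESeq and the mm9 (NCBIM37) build without their roles, and the strand setting is not given in the sources used here. The deposited natural log values were taken back to estimated counts by effective length and mapped fragments and rounded, which gave 98.7% to 99.5% of mapped fragments. Symbols were found for 32919 of 37991 genes (86.6%).

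Genes kept by filterByExpr (16033) were TMM-scaled and tested with edgeR 4.0.16 (R 4.3.3): quasi-likelihood F test, 1 model with a term per medium, contrast VitC/LIF minus FBS/LIF, Benjamini-Hochberg adjustment over all genes, threshold 0.05, 2-sided. Libraries varied with a common biological coefficient of variation of 0.238 (5 residual degrees of freedom). Standard errors (SE) come from dividing the size of the log2 fold change by the root of F. The code was tested on simulated data. DESeq2 1.42.0, RLE scaling, no filter, unique hits, a replicate block, fewer libraries and a shorter promoter window were alternatives.

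The 35 gene lists and the named genes were chosen with earlier results of these data known. The naming rule took, per direction, the 12 called genes of largest change with a symbol, 10 CPM or more and 50% or more unique fragments in the higher group and no overlap, leaving out predicted genes and pseudogenes. It added called list members, up to 3 others per list with the highest level, and a panel. Further members named to describe a list were picked after their values were seen. A called gene that the rule takes and a marker gene are not reported here. Of the listed symbols 25 had no identifier in the files. The 4 libraries of an experiment with another extraction were not used here. Replicates differed beyond counting noise (chi-square over degrees of freedom 31.8 in FBS/LIF, 29.5 in VitC/LIF). Estimated counts also carry error from dividing shared fragments, so this cannot show whether replicates are separate libraries or cultures.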

Additional observations from a re-analysis of the deposited data

How the results depend on the processing

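DESeq2 called 430 genes (245 higher, 185 lower), no filter on low counts 263 (139 and 124), unique hits 243 (147 and 96), these 4 libraries alone 61 (39 and 22), and RLE scaling 112. Without F/A replicate 1 the count was 250 (154 higher and 96 lower), and without 1 of the 4 libraries it lay between 6 and 12 (5 to 7 higher, 1 to 5 lower). The cause was not tested. Hypoxia genes called lower numbered 12 with DESeq2, and 0 without any 1 of the 4 libraries (9 without F/A replicate 1). Glycolysis genes called lower numbered 8 with DESeq2, 3 with the replicate block and 8 without F/A replicate 1. Germline genes called higher numbered 14 with DESeq2, 9 without the filter, 10 on unique hits and 9 without F/A replicate 1. The glycolysis and germline list members called above lost their calls without any 1 of the 4 compared libraries. All 108 genes kept their sign in each alternative that tested them. For the fits without 1 of the 4 libraries this follows from groups that do not overlap.

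Replicate numbers are shared across media, but the labels do not say what they mean. The deviations of same-numbered libraries correlated at 0.279 between FBS/LIF and VitC/LIF, at 0.269 to 0.684 over the 6 pairs of LIF media and at -0.134 to 0.190 over the 4 pairs with F/A. Median effective lengths in replicate 2 of FBS/LIF and VitC/LIF were 45.0 and 54.1 bases longer than in FBS/LIF replicate 1. Replicate 2 of 2i/LIF, L-Pro/LIF and F/A was longer by 41.5, 39.4 and 45.9 bases. Replicate 1 of the other media differed from it by -1 to 7 bases, so the shift went with the replicate number. With the replicate block 86 genes were called, 80 of them among the 108. Named genes that missed the threshold with the block were Spink1, Skil, Slc16a3, Rpl10l, Acta1, Dmrt1, Vrtn, Eno1, Fst, Lefty2 and Sema3c. Their edgeR adjusted p ran from 0.05002 for Spink1 to 0.0747 for Lefty2. With the 250 bases before the start alone, the share of windows with a HIF core stayed at 100% for the called hypoxia and glycolysis genes and was 75% for the called germline genes. With 2 libraries per medium the smallest called changes were 1.58-fold lower and 1.54-fold higher, and no smaller change was called at this depth and spread.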

Other observations

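Some groups of genes not on the lists above were examined after their values were seen, so their counts describe these libraries and support nothing further. Among 28 genes of fatty acid oxidation 2 rose and 0 fell (unadjusted, 9 higher and 0 lower; DESeq2, 3 higher and 0 lower), with a median log2 fold change of 0.19. Cpt1a, which controls the entry of fatty acids into mitochondria, rose from 14.0 and 17.6 to 32.4 and 31.9 CPM (log2 fold change 1.02, SE 0.15, edgeR adjusted p = 0.027). The carnitine carrier gene Slc25a20 rose from 22.7 and 17.3 to 44.2 and 42.3 CPM (log2 fold change 1.11, SE 0.18, edgeR adjusted p = 0.0352). The desaturase gene Scd1 (log2 fold change 0.93) and the epoxide hydrolase gene Ephx2 (1.498), which also act on lipids, were called higher, and Ppara, a regulator of fatty acid oxidation, was under 1 CPM in all 4 libraries. These 4 called genes lost the call when any of the 4 libraries was left out, with adjusted p between 0.0975 for Cpt1a and 0.280 for Slc25a20. Cpt1a, Slc25a20 and Scd1 also missed the threshold in the fit of these 4 libraries alone (adjusted p = 0.0786, 0.0659 and 0.0639). The fatty acid transporter gene Slc27a2, described above and not on this list, was called lower (log2 fold change -1.16), so called lipid genes went both ways.

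Among 29 semaphorins and their receptors, guidance molecules of axons and vessels, 2 fell and 0 rose (unadjusted, 5 lower and 3 higher; DESeq2, 2 lower and 0 higher). Sema3e fell from 47.3 and 52.96 to 22.9 and 23.1 CPM (log2 fold change -1.12) and Sema3c from 7.81 and 7.87 to 3.64 and 4.40 CPM (-0.96). Among 12 genes that make, break down or sense lysophosphatidic acid, Enpp2 and Lpar4 fell and 0 rose (unadjusted, 3 lower and 2 higher; DESeq2, 3 lower and 1 higher), while the lipase gene Liph, which makes the same lipid, was at 24.1 and 19.5 against 41.0 and 37.6 CPM (log2 fold change 0.85, adjusted p = 0.062). Both semaphorins lost the call when any of the 4 libraries was left out (adjusted p up to 0.222 and 0.301), and Sema3c in the fit of these 4 alone (adjusted p = 0.145).

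A gene without a symbol in the tables used, ENSMUSG00000081291, stood among the called increases. It was at 10.4 and 12.3 CPM in FBS/LIF and 126 and 127 CPM in VitC/LIF (log2 fold change 3.48, SE 0.22, edgeR adjusted p = 0.00157), and it was called in all 4 fits without 1 of these libraries. In the other media it was at 21.9 CPM in 2i/LIF, 14.6 in F/A and 5.72 in L-Pro/LIF. ENSMUSG00000091302, also without a symbol, was at 3.14 and 2.91 against 18.7 and 16.1 CPM (log2 fold change 2.52) and lost the call when any of the 4 libraries was left out (adjusted p up to 0.151).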
